A study of Mus musculus with 2 samples.

Results

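The 9 genes described here mark or maintain the identity of the corneal epithelium in the mouse. They are the keratin Krt12, the eye regulator Pax6, the abundant enzymes Aldh3a1 and Tkt, the Krüppel-like factors Klf4 and Klf5, the ETS-domain factors Ehf and Elf3, and the p53 relative Trp63. They were chosen by symbol, with no threshold on any measured value, and make up 9 of the 17891 genes in the deposited count table. All 9 were detected in both libraries and passed the filter on low counts over all cells.

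The corneal epithelium is a transparent stratified tissue renewed from stem cells at the limbus, the rim where cornea meets conjunctiva. Daughter cells divide in the basal layer, move up as wing cells and end as flat squamous cells at the surface. Pax6 is needed to form the eye and to keep corneal cells from taking on skin-like features, Krt12 is the keratin by which corneal differentiation is recognised, and Aldh3a1 and Tkt are so abundant in this tissue that they are called corneal crystallins.

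Epithelium came from 7 male C57BL/6J mice aged 10 weeks, and all animals had lost the right extraorbital and intraorbital lacrimal glands, which dries the right eye, 9 days before collection. The dry eye library pooled 6 right eyes, 1 injured eye being left out, and the control library pooled 7 left eyes of the same animals. Side and treatment went together and cannot be told apart, and the control eyes belonged to operated animals. With 1 library per group there was no test between groups. Intervals in parentheses are exact 95% intervals that cover counting error only, not differences between animals or eyes.

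In dry eye 16420 cells gave 207030777 UMIs (unique molecular identifiers, each a distinct captured transcript), and in control 17465 cells gave 191493194 UMIs. Median UMIs per cell were 9086.5 in dry eye and 8248 in control, and 74 cell barcodes occurred in both libraries. The authors sorted the cells into 13 classes, read here as limbal stem (LSC), transit-amplifying (TAC1 and TAC2), Basal, Wing, Squam (squamous), Conj (conjunctival) and Immune, plus 5 classes with an asterisk that the labels do not explain. The names LSC, Conj and Immune were checked against marker genes, and no markers were listed for TAC1, TAC2, Basal, Wing or Squam. The limbal gene Gpha2 had 3475 CPM (counts per 1e6 UMIs) in dry eye LSC and 3067 CPM in control LSC, and at most 143 CPM in dry eye and 73.8 CPM in control in the other classes of at least 100 cells. The sum of all 5 limbal markers did not single out LSC: with Krt15 in it, it was 15927 CPM in dry eye and 14561 CPM in control LSC, and 15979 and 16054 CPM in Conj. LSC* had only 27.8 CPM of Gpha2 in dry eye. Conjunctival markers summed to 11698 CPM in dry eye Conj and 9329 CPM in control Conj. They were also high in Squam cells, at 8227 CPM in dry eye and 5225 CPM in control, and in dry eye Squam* cells, at 7715 CPM. Immune markers reached 34532 CPM in dry eye Immune and 48191 CPM in control Immune. Starred cells were mostly from dry eye: LSC* held 85 dry eye cells and 6 control cells, TAC2* 572 and 21, Wing* 446 and 12, and Squam* 217 and 0. TAC1* (473 dry eye and 133 control cells), LSC, TAC1, TAC2, Basal, Wing, Squam and Conj had at least 100 cells in each library and were compared between them.

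Over all cells, the corneal identity genes differed little between the libraries. Krt12 stood at 19318 CPM in dry eye and 21648 CPM in control, a ratio of 0.892 (0.891 to 0.894). Pax6 had 315 CPM in dry eye and 377 CPM in control, and its ratio of 0.835 (0.827 to 0.844) was the lowest of the 9. A gene was counted as changed if its ratio was at least 1.5 or at most the inverse of that. None of the 9 was changed in either direction, where the background over 4775 genes was 2.81% higher and 1.4% lower in dry eye.

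The enzymes and most of the factors lay within the same narrow band. Aldh3a1, an aldehyde dehydrogenase, had 7128 CPM in dry eye and 8113 CPM in control (ratio 0.879). Tkt, the transketolase of the pentose phosphate pathway, had 2847 CPM in dry eye and 3161 CPM in control (ratio 0.901). Trp63, at 96.3 CPM in dry eye and 109 CPM in control, and Klf5, at 275 and 310 CPM, had ratios of 0.881 and 0.887. Above 1 were only Klf4, with 835 CPM in dry eye and 729 CPM in control (ratio 1.15, 1.14 to 1.15), and Elf3, with 479 and 427 CPM (ratio 1.12, 1.11 to 1.13). Ehf was nearest to 1, at 258 CPM in dry eye and 268 CPM in control, and its ratio of 0.964 became 1.01 under median-of-ratios scaling. The median log2 ratio of the 9 genes was -0.16, and that of all genes tested was -0.05.

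These ratios shifted with the mix of cells, some toward 1 and some away from it. Wing cells, the class richest in Krt12, were 20.6% of dry eye cells and 32.4% of control cells, and Basal cells were 17.4% and 24.2%. When the dry eye classes were weighted to the control shares, the ratio of Krt12 became 1.05 and Pax6 stayed below 1 at 0.883. Klf4 and Trp63 moved further from 1, to 1.23 and 0.857. The control shares give Squam* cells a weight of 0%, and LSC*, TAC2* and Wing* cells at most 0.12% each.

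For each of the 9 genes, the highest and lowest classes lay further apart than the libraries did over all cells. This is a description, because the classes were made from the same counts. Krt12 peaked in Wing cells, at 31536 CPM in dry eye and 30950 CPM in control, and was lowest in LSC cells, at 3947 and 7579 CPM. The highest class was thus 7.99 times the lowest in dry eye and 4.08 times in control. In control the order was Wing, Basal, TAC1*, TAC1, TAC2, Squam, Conj and LSC, with no neighbours whose counting intervals overlapped. In dry eye, Squam cells stood above TAC1 cells, and TAC1* cells stood below TAC2 cells.

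**Figure D1:**
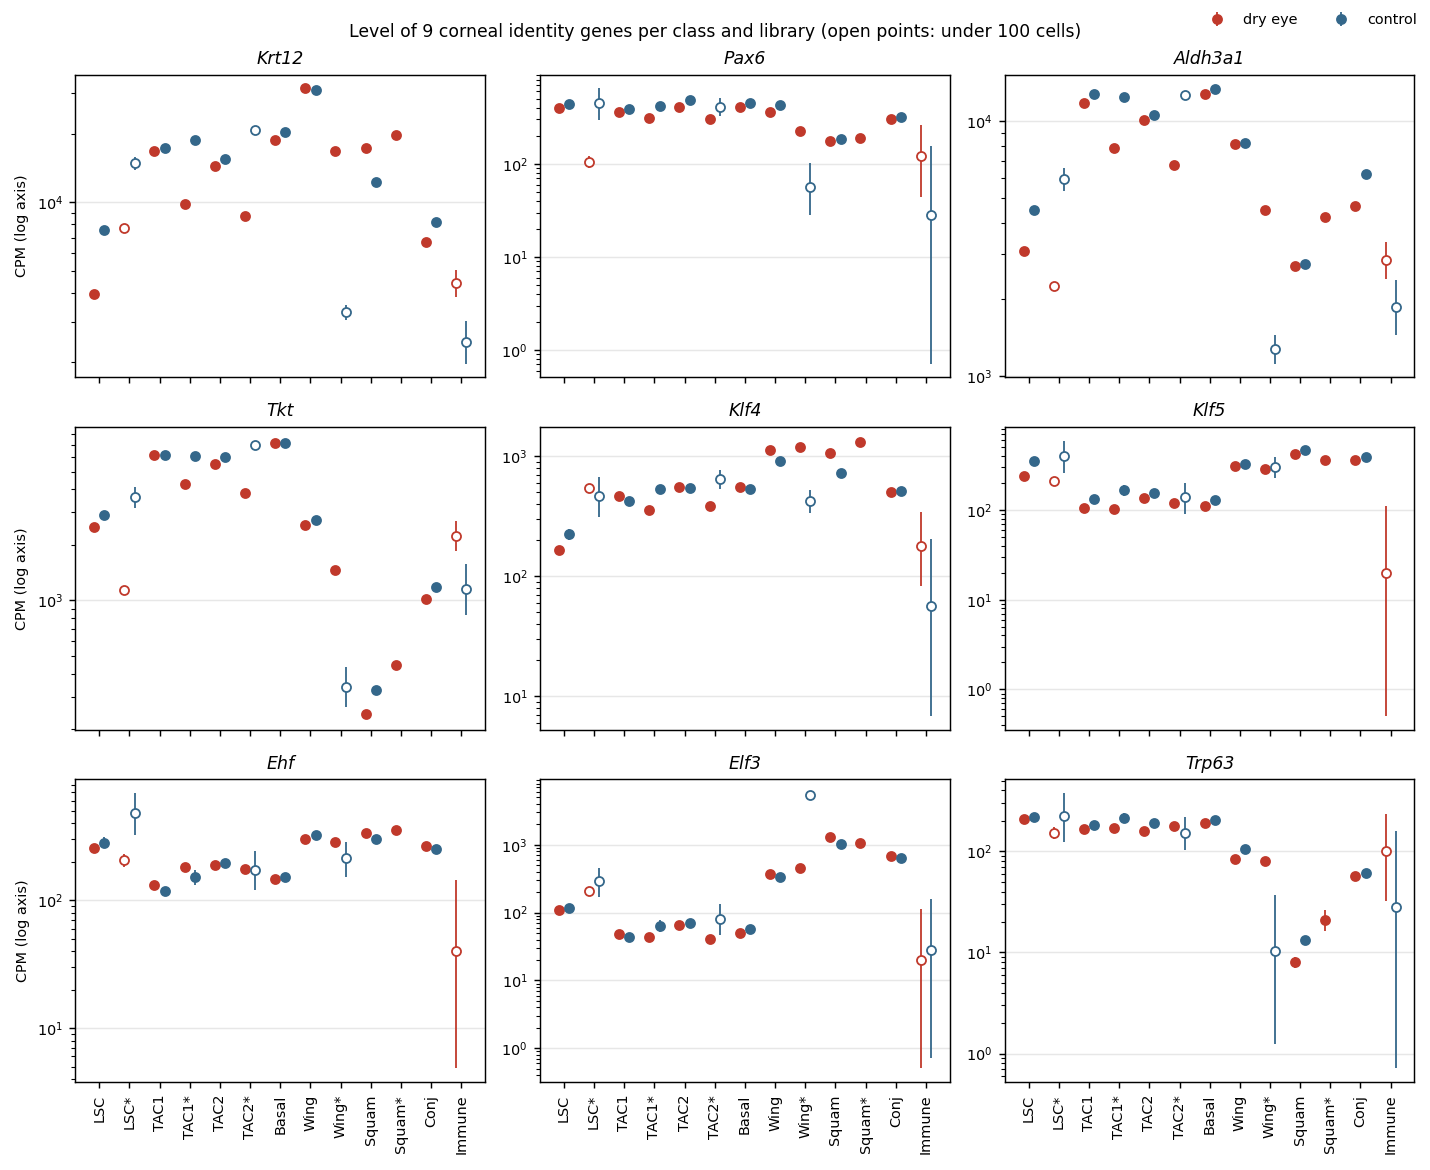
Level of each gene in CPM (log axis) in each class, dry eye left of control, with exact 95% counting intervals; open points are classes of under 100 cells in that library. Krt12 is highest in Wing cells of both libraries, Tkt and Trp63 are at 241 and 8.0 CPM in dry eye Squam cells, and Elf3 is at 1293 CPM there.

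Pax6 varied least across layers. It ranged between 408 CPM in Basal and 178 CPM in Squam cells of dry eye, and between 482 CPM in TAC2 and 185 CPM in Squam cells of control, which is 2.29-fold in dry eye and 2.61-fold in control. Basal and TAC2 cells did not differ beyond the counting intervals in dry eye, nor did Wing and TAC1 cells. Conjunctival cells, which also express Pax6 in the normal eye, held 304 CPM in dry eye and 322 CPM in control.

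The corneal crystallins were genes of the dividing and basal layers. Aldh3a1 was highest in Basal cells, at 12785 CPM in dry eye and 13442 CPM in control, and lowest in Squam cells, at 2690 and 2752 CPM. Tkt had a steeper profile, with 7151 CPM in dry eye and 7149 CPM in control Basal cells against 241 and 325 CPM in Squam cells. Its highest class was 29.7 times its lowest in dry eye and 22.0 times in control. Squam cells held 2.82 Tkt UMIs per cell in dry eye and 3.68 in control, and the shallower Immune cells held 3.61 and 2.05. In LSC cells, Aldh3a1 had 3098 CPM in dry eye and 4485 CPM in control, and Tkt had 2502 and 2888 CPM.

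Trp63, whose product p63 keeps basal cells of stratified epithelia able to divide, was also lowest in Squam cells among classes of at least 100 cells. Unlike the crystallins, it had its highest point value among those classes in LSC cells. That value did not differ beyond counting intervals from dry eye Basal cells (193 CPM), or from control TAC1* and Basal cells (215 and 206 CPM). LSC cells held 210 CPM in dry eye and 217 CPM in control, Wing cells 83.1 and 105 CPM, and Squam cells 8.0 and 13.3 CPM. With every cell thinned to 3000 UMIs, 48.2% of dry eye LSC cells and 53.0% of control LSC cells had a Trp63 UMI, against 2.38% and 3.41% of Squam cells, a layer that should lack it. Before thinning the share was 67.1% in dry eye LSC cells, at a median depth of 5478.5 UMIs, and 59.2% in control LSC cells, at 4567 UMIs. In Squam cells it was 7.3% in dry eye, at 9518 UMIs, and 12.1% in control, at 9342.5 UMIs. Counts from transcript ends do not separate the isoforms of Trp63.

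The 4 other factors were higher in Wing or Squam cells than in TAC1 and Basal cells. Klf4, which in mouse cornea is needed for the barrier and for Krt12 expression, had 1132 CPM in dry eye and 920 CPM in control Wing cells, and 167 and 224 CPM in LSC cells. Klf5, a relative that also supports corneal maturation in mice, was highest in Squam cells, at 422 CPM in dry eye and 468 CPM in control. In control it was also high at the limbus, where LSC cells, at 347 CPM, and Wing cells, at 327 CPM, did not differ beyond their counting intervals. In dry eye Klf5 was lower in LSC than in Wing cells beyond these intervals, at 240 and 310 CPM. Ehf spanned 2.67-fold in dry eye and 2.73-fold in control, and had its lowest level in TAC1 cells. Its 281 CPM in control LSC cells and 298 CPM in control Squam cells did not differ beyond their counting intervals either. In dry eye Ehf was lower in LSC than in Squam cells beyond these intervals, at 256 and 333 CPM. Elf3, an ETS factor of differentiated epithelia, had the widest range, from 40.4 CPM in TAC2* to 1293 CPM in Squam cells of dry eye and from 43.3 CPM in TAC1 to 1038 CPM in Squam cells of control.

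The promoters of Krt12, Tkt and Elf3 are shown because these genes peak in different layers, wing, basal and squamous. Each window holds 250 bases before and 50 bases after the start site in RefSeq on GRCm38.p6 and reads 5′ to 3′ on the strand of the gene. Krt12 is on the minus strand at chr11:99422210-99422509, Tkt on the plus strand at chr14:30548881-30549180 and Elf3 on the minus strand at chr1:135258423-135258722. Capitals mark CACCC, or GGGTG, which is CACCC on the other strand, a short run found in many sites bound by Krüppel-like factors.
Krt12: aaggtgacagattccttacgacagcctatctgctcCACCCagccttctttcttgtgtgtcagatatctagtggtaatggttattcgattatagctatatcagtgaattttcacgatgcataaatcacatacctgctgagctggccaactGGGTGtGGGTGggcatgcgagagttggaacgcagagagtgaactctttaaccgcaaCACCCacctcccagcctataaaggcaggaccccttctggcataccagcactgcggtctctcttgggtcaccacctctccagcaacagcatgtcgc
Tkt: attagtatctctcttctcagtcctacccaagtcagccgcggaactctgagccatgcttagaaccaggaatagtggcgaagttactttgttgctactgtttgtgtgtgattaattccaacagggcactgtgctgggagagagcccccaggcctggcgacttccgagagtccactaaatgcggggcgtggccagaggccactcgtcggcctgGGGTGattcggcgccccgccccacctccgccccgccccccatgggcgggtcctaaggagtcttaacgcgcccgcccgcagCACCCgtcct
Elf3: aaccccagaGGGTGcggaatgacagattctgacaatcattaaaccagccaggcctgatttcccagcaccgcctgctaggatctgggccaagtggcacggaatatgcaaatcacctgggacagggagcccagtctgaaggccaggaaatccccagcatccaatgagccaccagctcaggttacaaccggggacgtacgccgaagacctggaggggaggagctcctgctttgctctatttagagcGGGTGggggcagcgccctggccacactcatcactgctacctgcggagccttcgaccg

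Krt12 had 4 matches, the nearest beginning 45 bases before the start site, and the only TATAAA among these windows. Tkt and Elf3 had 2 matches each. Of 32851 promoter windows of the same length, 57.5% held at least 1 match and 9.35% held 3 or more. The windows found for Pax6 had 1 and 0 matches and that of Klf4 had 0. A match describes letters and not a bound site. In the gene annotation of GRCm38, antisense genes overlap Krt12 (A830036E02Rik, 4442 UMIs in dry eye and 5354 in control), Pax6 (Pax6os1, 849 and 1188 UMIs) and Elf3 (Gm26642, 22 and 26 UMIs). The labels do not say whether counting used strand, and reads of such partners may not be separable.

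Within classes, few of the ratios of dry eye over control passed the fold, and those that did were in LSC and TAC1* cells. Of 72 combinations of gene and class, 71 passed the filter on low counts, 0 were changed upward and 4 downward. In the intermediate and basal layers none of the 9 was changed. There the background was 0.803% higher and 0.401% lower in TAC1, 1.41% and 1.04% in TAC2, 0.602% and 0.473% in Basal, and 2.25% and 1.14% in Wing cells. Krt12 had 31536 CPM in dry eye and 30950 CPM in control Wing cells (ratio 1.02), and 18825 and 20264 CPM in Basal cells (ratio 0.929). Tkt was level in Basal cells, at a ratio of 1.0 (0.993 to 1.01).

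**Figure D2:**
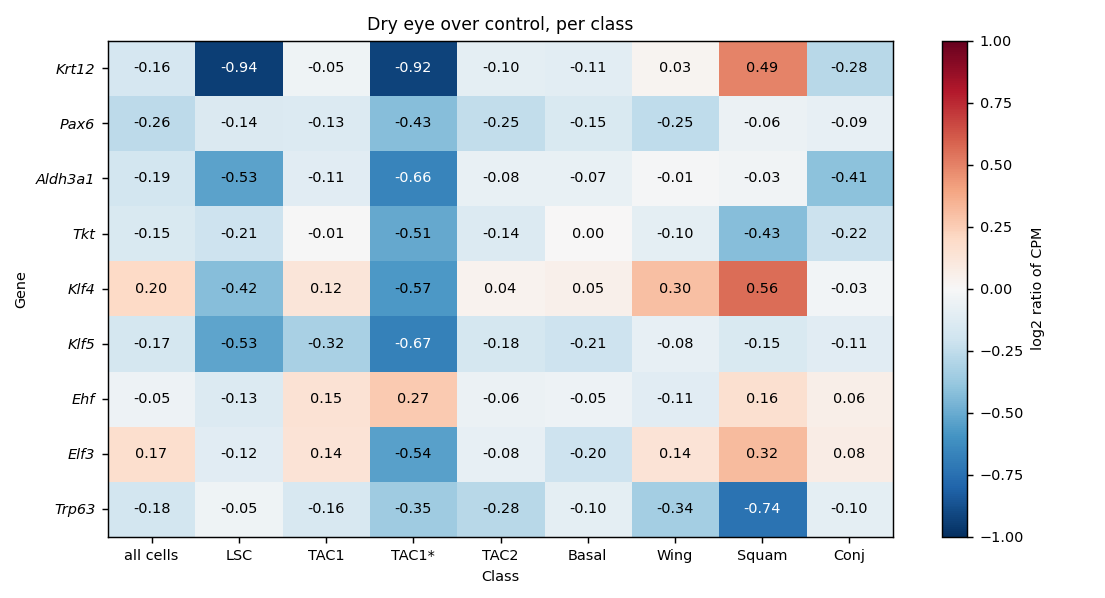
Log2 ratio of dry eye over control CPM for each gene (rows) over all cells and in each class of at least 100 cells per library (columns); red is higher and blue is lower in dry eye. The strongest blue cells are Krt12 in LSC (-0.94) and TAC1* (-0.92), and the strongest red ones are Klf4 (0.56) and Krt12 (0.49) in Squam.

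In LSC cells, Krt12 fell to 3947 CPM in dry eye, against 7579 CPM in control, a ratio of 0.521 (0.508 to 0.533). It was the only 1 of the 9 past the fold there, where the background was 2.73% higher and 7.07% lower. LSC cells held 28.5 Krt12 UMIs per cell in dry eye and 42.7 in control. Immune cells, 31 in dry eye and 20 in control at median depths of 918 and 1351 UMIs, should make no Krt12. They held 7.13 Krt12 UMIs per cell in dry eye and 4.35 in control. With the upper limit of that level, taken as a bound on free RNA, subtracted from the higher library, the LSC ratio was 0.596. Aldh3a1 (3098 CPM in dry eye and 4485 CPM in control, ratio 0.691) and Klf5 (240 and 347 CPM, ratio 0.692) lay just short of the fold in the same cells.

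Krt12 was spread unevenly over LSC cells. Thinned to 3000 UMIs, the median LSC cell had 4 Krt12 UMIs in dry eye and 7 in control, and the upper quartile began at 13 UMIs in dry eye and 34 in control. The gap was wider at the upper quartile than at the median. The 10 cells with the most Krt12 held 18.5% of the Krt12 UMIs of LSC cells in dry eye and 29.3% in control. Without them the ratio was 0.559.

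In TAC1* cells, 3 of the 9 genes fell. Krt12 had 9859 CPM in dry eye and 18690 CPM in control (ratio 0.528, 0.520 to 0.535), Aldh3a1 had 7843 and 12422 CPM (ratio 0.631, 0.621 to 0.642), and Klf5 had 104 and 165 CPM (ratio 0.627, 0.540 to 0.731). The background in this class was high, at 13.9% higher and 14.6% lower, so many other genes moved as far. Klf4 at 0.672, Elf3 at 0.687 and Tkt at 0.702 lay just inside the fold, and Ehf alone was above 1, at 1.2 (1.04 to 1.4). With free RNA bounded in the same way, Krt12 had a ratio of 0.542 and Aldh3a1 0.652, and Klf5 at 0.699 was no longer past the fold. Klf4 was then at 0.717 and Tkt at 0.733. The difference of Elf3, on 271 UMIs in dry eye and 93 in control, lay within the bound.

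The TAC1* cells of the libraries were unlike in other genes too. Krt14, a basal keratin that stands on both the limbal and the skin-type list, had 6047 CPM in dry eye and 596 CPM in control TAC1* cells. The other 4 limbal markers (Gpha2, Krt15, Cd63 and Ifitm3) summed to 1248 CPM in dry eye and 334 CPM in control TAC1* cells. Most of that difference was Ifitm3, at 898 CPM in dry eye and 61.0 CPM in control. Krt15 was level, at 223 and 219 CPM, and Gpha2 was at 124 and 54.1 CPM. Control TAC1* cells had 18690 CPM of Krt12, close to the 17342 CPM of control TAC1 cells. The part of these genes in the Krt12 ratio was not tested.

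Squam cells showed the opposite side for Krt12 and Klf4, without passing the fold. Krt12 had 17322 CPM in dry eye and 12305 CPM in control (ratio 1.41, 1.40 to 1.41), and Klf4 had 1064 and 722 CPM (ratio 1.47, 1.45 to 1.5). None of the 8 genes that passed the filter was changed, where the background was 3.17% higher and 5.53% lower. Under median-of-ratios scaling, which shifted Squam ratios up by 0.19 on the log2 scale, they became 1.61 for Krt12 and 1.69 for Klf4, both past the fold. Elf3 had 1293 CPM in dry eye and 1038 CPM in control Squam cells, a log2 ratio of 0.32. Tkt, at 241 and 325 CPM, had a ratio of 0.743, a difference that lay within the free RNA bound. Trp63, at 8.0 and 13.3 CPM, was under the filter. Conjunctival markers summed to 8227 CPM in dry eye Squam cells and 5225 CPM in control Squam cells, and their part in these ratios was not tested.

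**Figure D3:**
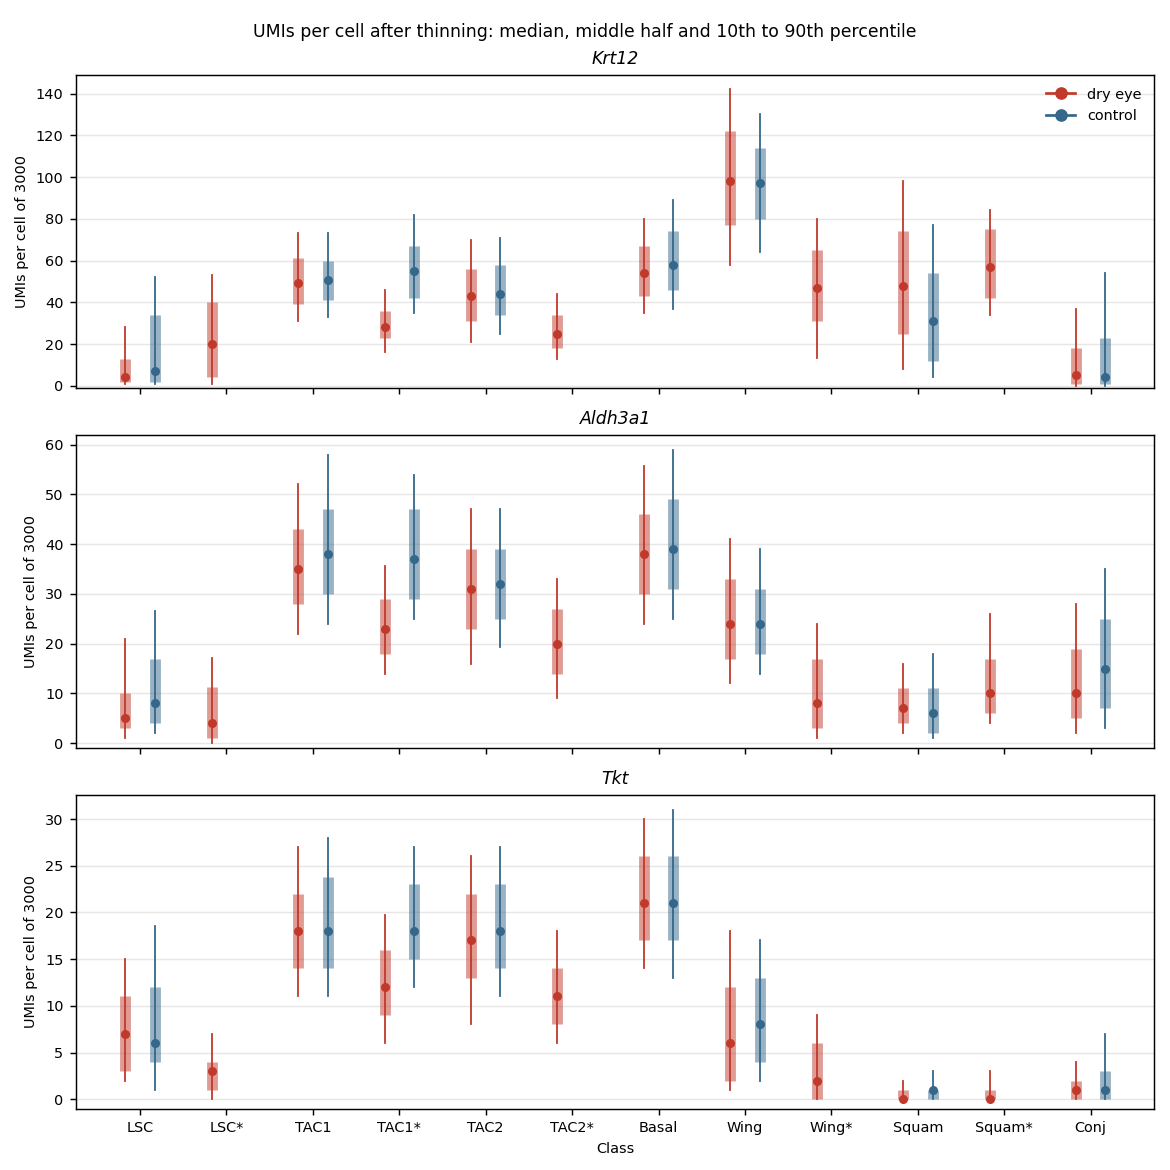
UMIs of Krt12, Aldh3a1 and Tkt per cell, all cells thinned to 3000 UMIs, by class, dry eye left of control. Points are medians, bars the interquartile range and thin lines run between the lowest and highest deciles; classes of under 50 thinned cells are not drawn. The median Squam cell had 48 Krt12 UMIs in dry eye and 31 in control, and the median TAC1* cell had 28 and 55.

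Thinned counts of single cells showed how far these classes overlapped. The median Krt12 count was 48 UMIs in dry eye and 31 in control Squam cells, and 98 in dry eye and 97 in control Wing cells. In TAC1* cells the medians were 28 UMIs in dry eye and 55 in control. There the upper quartile of the dry eye cells began at 36 UMIs and the lower quartile of the control cells ended at 42, so the middle ranges did not overlap.

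In Conj cells, where Krt12 is normally scarce, the gene had 6734 CPM in dry eye and 8167 CPM in control (ratio 0.825). Median thinned counts were 5 UMIs per cell in dry eye and 4 in control. Aldh3a1 had 4665 CPM in dry eye and 6189 CPM in control (ratio 0.754). None of the 9 genes was changed, where the background was 0.707% higher and 0.11% lower.

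Pax6 had a ratio a little below 1 in all 8 classes. Its ratio was lowest in TAC1* cells, with 308 CPM in dry eye and 414 CPM in control (ratio 0.743, 0.677 to 0.816), followed by Wing cells, with 358 and 426 CPM (ratio 0.840). Squam cells came nearest to 1, at 0.960 (0.927 to 0.995), and there the direction was lost under median-of-ratios scaling, at 1.10. With free RNA bounded, the ratio was 0.792 in TAC1*, 0.901 in TAC2 and 0.879 in Wing cells, 0.995 in TAC1 and 0.996 in Basal cells, and in LSC, Squam and Conj cells the difference lay within the bound. Over all cells thinned to 3000 UMIs, 56.4% of dry eye cells and 63.1% of control cells had a Pax6 UMI. Before thinning the shares were 84.7% in dry eye and 86.6% in control. In Immune cells, which are shallower and few (31 in dry eye and 20 in control), they were 6.45% and 5.0%.

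The starred classes were set against their unstarred counterparts within the dry eye library, as a description, because the classes were made from the same counts. Of 45 combinations, 6 were at least 1.5-fold higher, 10 at least 1.5-fold lower and 29 neither. These counts used the ratio alone, while the background shares are of genes that also passed the filter on low counts. Background shares were large in these comparisons, at 24.2% higher and 29.6% lower in LSC*, 10.3% and 6.7% in TAC1*, 8.3% and 14.2% in TAC2*, 10.2% and 9.59% in Wing*, and 24.9% and 9.54% in Squam*.

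Krt12 was lower in 3 starred classes and higher in LSC*. It had 9859 CPM in TAC1* and 16794 CPM in TAC1 (ratio 0.587), 8727 in TAC2* and 14469 in TAC2 (ratio 0.603), and 16694 in Wing* and 31536 in Wing (ratio 0.529). In LSC*, 85 cells with a median depth of 16145 UMIs, it had 7712 CPM, against 3947 CPM in LSC (ratio 1.95, 1.91 to 2.0). Krt14 was higher in every starred class, whichever way Krt12 went. It had 9368 CPM in Wing* and 577 CPM in Wing, 7876 CPM in TAC2* and 2379 CPM in TAC2, and 6047 CPM in TAC1* and 1196 CPM in TAC1. It also had 15945 CPM in LSC* and 5051 CPM in LSC. In Squam*, where the Krt12 ratio was 1.13, Krt14 had 5155 CPM, against 123 CPM in Squam. The other 4 limbal markers summed to 2470 CPM in Wing* and 3914 CPM in Wing, and to 1489 and 1021 CPM in TAC2* and TAC2. These sums hide opposite directions. In TAC2* only Ifitm3 was higher, at 1265 CPM against 245 CPM in TAC2. Krt15, at 131 and 629 CPM, Gpha2, at 89.8 and 143 CPM, and Cd63 were lower there. In Wing* only Krt15 was lower, at 1922 CPM against 3861 CPM in Wing, and Gpha2, Cd63 and Ifitm3 were higher. The part of these genes in the Krt12 ratios was not tested.

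**Figure D4:**
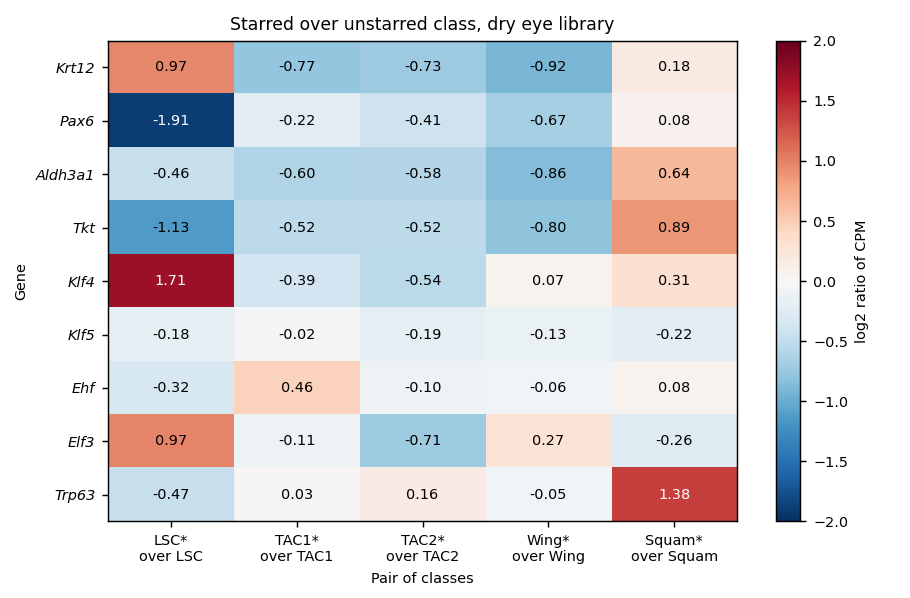
Log2 ratio of each starred class over its unstarred counterpart in the dry eye library (columns) for each gene (rows). Krt12, Pax6, Aldh3a1 and Tkt are blue together in Wing*, at -0.92, -0.67, -0.86 and -0.80, while the other 5 genes there lie between -0.13 and 0.27.

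In Wing* cells, 4 of the 9 genes fell and the other 5 did not pass the fold. Aldh3a1 had 4484 CPM in Wing* and 8150 CPM in Wing (ratio 0.550), Tkt 1463 and 2551 CPM (ratio 0.573), and Pax6 225 and 358 CPM (ratio 0.629, 0.604 to 0.655). All of these fell past the fold, as Krt12 did. Klf4 in the same cells was at 1190 CPM in Wing* and 1132 CPM in Wing (ratio 1.05), Elf3 at 450 and 373 CPM (ratio 1.21), and Klf5, Ehf and Trp63 had ratios of 0.912, 0.958 and 0.967.

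LSC* cells differed from LSC cells in several of the 9 genes and in both directions. Pax6 fell to 105 CPM in LSC*, against 394 CPM in LSC (ratio 0.267, 0.227 to 0.313), and Tkt fell to 1142 CPM, against 2502 CPM (ratio 0.457). Klf4 had 546 CPM in LSC* and 167 CPM in LSC (ratio 3.27, 2.96 to 3.62), and Elf3 had 211 and 108 CPM (ratio 1.96, 1.70 to 2.26). In Squam*, Tkt was at 446 CPM, against 241 CPM in Squam (ratio 1.85), and Aldh3a1 at 4202 CPM, against 2690 CPM (ratio 1.56). Tkt UMIs per cell were 7.48 in Squam*, 2.82 in Squam and 3.61 in dry eye Immune cells. Pax6, at 189 CPM in Squam* and 178 CPM in Squam, had a ratio of 1.06 (0.978 to 1.15). Trp63 stood at 20.9 CPM in Squam* and 8.0 CPM in Squam on 76 and 278 UMIs (ratio 2.61, 2.0 to 3.38). Of these classes it reached 20 CPM, the limit used for the background, only in Squam*, where it was higher. It counts among the 6 by its ratio alone. Under median-of-ratios scaling, which shifted Squam* down by 0.35 on the log2 scale, Tkt at 1.45 and Aldh3a1 at 1.23 were no longer past the fold. In TAC2*, Elf3 was also lower, at 40.4 CPM against 66.0 CPM in TAC2 (ratio 0.612), and in TAC1* so was Aldh3a1 (ratio 0.661).

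Among themselves the genes formed patterns over the 8 classes and both libraries. Pearson correlations of log2(CPM + 1) over these 16 points describe likeness only, since the points share libraries, depth and the same 8 classes. Trp63 ran with Tkt (r = 0.94) and Pax6 (r = 0.93), and Tkt with Aldh3a1 (r = 0.88). Klf5 ran with Elf3 (r = 0.93) and Ehf (r = 0.90), and against Tkt (r = -0.85). Krt12 stood between these sets and was most like Klf4 (r = 0.78).

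**Figure D5:**
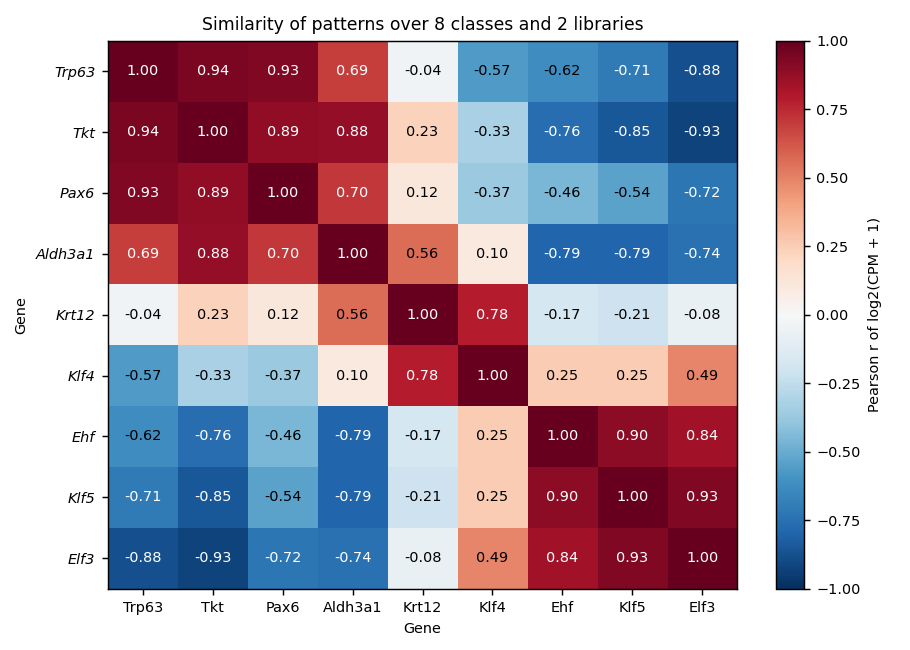
Pearson correlation of log2(CPM + 1) between each pair of the 9 genes over 16 points (8 classes in each of 2 libraries). Trp63, Tkt, Pax6 and Aldh3a1 form a red block with values of 0.69 to 0.94, Ehf, Klf5 and Elf3 another with 0.84 to 0.93, and Krt12 pairs best with Klf4 at 0.78.

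Of 6478 other genes, those most like Krt12 were Bnip3l, a mitophagy receptor (r = 0.95), the homeobox gene Emx2 (r = 0.93) and the guanylate cyclase activator Guca1a (r = 0.91). Pax6 was most like Sbno1, Tmem218 and Osbpl6, each at r = 0.98. Nearest to Aldh3a1 were Gkn1 (r = 0.97), the mechanosensitive channel gene Piezo2 (r = 0.97) and Slc16a12 (r = 0.95). For Tkt they were Cmc1, Erp29 and Micos10 (r = 0.99 each), and for Trp63 Zfp106, Fra10ac1 and Spr (r = 0.99 each). Genes like Klf4 were Fam25c (r = 0.94), Plekhf2 (r = 0.94) and Stam2 (r = 0.92). The tight junction gene Cldn3 (r = 0.98), Atp2c1 and Arhgap32 (r = 0.97 each) were closest to Klf5, and the creatine transporter gene Slc6a8 (r = 0.96), Tead3 and Stfa1 (r = 0.95 each) to Ehf. Elf3 was nearly parallel to the keratin Krt80 (r = 0.996), Mab21l4 and Cldn23 (r = 0.99 each).

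Other products of the corneal epithelium were counted over all cells. Listed genes needed only 50 UMIs, whereas the background of 2.81% higher and 1.4% lower is of genes that also reached 20 CPM, and without a filter it is 14.1% and 10.9%. Of 14 listed, 0 were at least 1.5-fold higher and 1 was lower, with a median log2 ratio of -0.09. The adhesion gene Dsg1a fell to 195 CPM in dry eye, against 317 CPM in control (ratio 0.615), and the glutathione transferase Gsta4 had 8091 and 10515 CPM (ratio 0.769). At the other end were the chaperone Clu, at 262 CPM in dry eye and 184 CPM in control (ratio 1.42), and the claudin Cldn4, at 59.6 and 43.3 CPM (ratio 1.38). In TAC1* cells, 2 of 13 were higher and 8 lower, with a median log2 ratio of -0.74, where the background was 13.9% higher and 14.6% lower and the median 0.04. In LSC cells 1 of 14 was higher and 6 lower, with a median of -0.43, where the background was 2.73% and 7.07% and the median -0.06. These backgrounds within classes are also of genes that reached 20 CPM, and no share without that limit was computed there.

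Enzymes and proteins that serve as crystallins in the lens or cornea of some vertebrates were also read over all cells. Of 12 with counts, 0 were higher and 3 lower, with a median log2 ratio of -0.15, beside backgrounds of 1.4% lower with the filter and 10.9% without it. Aldh1a1 had 27.2 CPM in dry eye and 45.9 CPM in control (ratio 0.593), the small heat shock protein gene Cryab 226 and 343 CPM (ratio 0.658), and the lens crystallin Cryaa, far under the filter, only 15 and 73 UMIs (ratio 0.190, 0.101 to 0.334). The glycolytic genes Eno1, at 110 CPM in dry eye and 78.4 CPM in control (ratio 1.40), and Ldha, at 354 and 284 CPM, had the highest ratios.

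Of 24 other transcription factors of the corneal epithelium, 1 rose and 1 fell over all cells, with a median log2 ratio of -0.10. Both were under 20 CPM, and the count is no larger than the shares of 14.1% higher and 10.9% lower among all genes without a filter. The homeobox gene Barx2 rose to 13.7 CPM in dry eye, against 4.73 CPM in control (ratio 2.90, 2.69 to 3.13). Dlx3 fell to 2.01 CPM, against 3.18 CPM (ratio 0.633). Meis1 had 22.2 CPM in dry eye and 31.1 CPM in control (ratio 0.712), and Ets2 36.7 and 25.5 CPM (ratio 1.44). In TAC1* cells 2 of 21 were higher and 11 lower, with a median of -0.61. The background there, of genes that also reached 20 CPM, was 13.9% higher and 14.6% lower.

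Most genes of skin-type keratinization on the list rose, but the list was chosen with earlier results of these data known. Its counts are thus a description and not a test. Of 17 with counts, 13 were at least 1.5-fold higher in dry eye and 0 lower, with a median log2 ratio of 2.81, where 2.81% of all genes were higher and 1.4% lower with the filter and 14.1% and 10.9% without it. The cornified envelope gene Sprr1b had 21329 UMIs in dry eye and 0 in control, and Dmkn had 56.1 and 1.13 CPM (ratio 49.7). The classical epidermal keratins were at the other end of the list. Krt10 had 35.8 CPM in dry eye and 29.7 CPM in control (ratio 1.21), and Krt1 had 5.20 and 6.50 CPM (ratio 0.80).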

How the data were processed

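Single-cell 3′ RNA libraries of corneal epithelium, freed with enzyme and trypsin per the labels' protocols, gave 1 dry eye and 1 control library. The authors deposited UMI counts, raw and whole, for every gene and cell, and a table with the library and class of each cell. The submitters' processing notes name Cell Ranger 6.0.1, Seurat 4 and mm10. Filters on cells and genes, the making of the classes, and any removal of doublets or free RNA are not stated there or in the labels.

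Counts were summed over the cells of a library or class and divided by its total to give CPM. Ratios of dry eye over control carry an exact 95% Clopper-Pearson interval for the share of UMIs from dry eye, and levels an exact Poisson interval. Cells of a pool are no replicates of each other, so these intervals reflect counting alone, and no p-value was computed. Genes entered the background with 100 UMIs in total and 20 CPM in either library, and within a class with 50 UMIs and 20 CPM. Listed genes needed 50 UMIs, and in the median a gene at 0 in one library was set at 3 counts there. The fold that counts was 1.5. Classes needed 100 cells in each library. For shares and medians per cell, UMIs were drawn at random down to 3000 per cell, without 784 dry eye and 1094 control cells that had fewer. No doublet caller was run, and the deepest 5% of cells were left out as an alternative. The interval was tested on simulated counts.

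Members and gene lists were chosen with earlier results of these data known. Named genes were all 9 members, the 3 genes most like each in log2(CPM + 1) pattern, leaving out predicted, mitochondrial and ribosomal protein genes, and the 2 highest and 2 lowest ratios of each list. Cryab was named after its value was seen. Gene positions came from GENCODE on GRCm38 and promoters from RefSeq. Promoters were found for 5 of the 9 members and not for Aldh3a1, Klf5, Ehf and Trp63. Python 3.11.15, numpy 2.4.6, scipy 1.17.1 and pandas 2.3.3 were used.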

Additional observations from a re-analysis of the deposited data

Results flagged for a closer look

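Krt12 and Klf4 had ratios of dry eye over control on opposite sides of 1 in different classes. Krt12 had a ratio of 1.41 in Squam cells and of 0.521 in LSC cells. Klf4 had a ratio of 1.47 in Squam cells and of 0.672 in TAC1* cells. With 1 library per group the difference between classes was not tested.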

How the results depend on the processing

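With 1 pooled library per group, no replicate could be left out. No paired analysis was possible because eyes were pooled into 1 library per group. Over all cells, 0 of the 9 genes passed the fold in either direction under each of 9 alternatives of scaling, weighting and cells used, and at a lower and a higher fold, and 79 of 81 values kept their direction. The exceptions were Ehf under median-of-ratios scaling (1.01) and Krt12 at control class shares (1.05). The free RNA bound was not among these 9 alternatives. With it, the ratios over all cells of Trp63 and Ehf crossed 1, to 1.15 and 1.03, so their differences lay within the bound. Within classes, 428 of 488 values kept their direction. The count of higher combinations was 0 and became 2 under median-of-ratios scaling (Krt12 and Klf4 in Squam) and 1 with starred cells joined to their class (Klf4 in Squam, 1.51). The count of lower ones, 4, became 6 with the mean over cells, 5 thinned to 3000 UMIs, and 3 with free RNA bounded or with starred cells joined, where the 3 were Krt12, Aldh3a1 and Klf5 in LSC. Krt12 in LSC had ratios of 0.513 to 0.633. Krt12 in TAC1* had ratios of 0.527 to 0.542, with no value of its own where TAC1* was joined to TAC1. In the starred comparison, 165 of 180 values kept their direction. The free RNA bound, the 10 cells left out within classes, and thinning or leaving out deep cells in the starred comparison were chosen after the data were seen. Without a filter on low counts, background shares over all cells were 14.1% higher and 10.9% lower. Few counts limit Trp63 in Squam cells, and few cells limit the starred classes in control.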

Other observations

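Values outside the comparisons came from classes of few cells. The 12 control Wing* cells held 5448 CPM of Elf3 and 3300 CPM of Krt12, where control Wing cells held 339 and 30950 CPM. The 21 control TAC2* cells held 20674 CPM of Krt12 and the 6 control LSC* cells 14794 CPM. Immune cells held 4422 CPM of Krt12 in dry eye and 2455 CPM in control, and 2241 and 1157 CPM of Tkt.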
